A study of Mus musculus with 8 samples.

Results

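Genes of the Polycomb complexes, histone deacetylases, chromatin remodellers and DNA methyltransferases were compared between the tips of secondary alveolar septa and whole lung of newborn mice. They were chosen by their annotated symbol: every probe set with a single symbol of the Phc, Cbx, Hdac, Smarc, Ezh, Chd, Dnmt or Sirt families, or named Ring1, Rnf2, Bmi1, Eed, Suz12, Rbbp4, Rbbp7 or Yy1. This gave 42 genes with 59 probe sets, of 8251 named genes and 12422 probe sets on the array. A probe set is a group of short oligonucleotides that report together on 1 transcript. The set was assembled when the tip-to-lung differences of these data were already known, so those differences are given as a description and support nothing by themselves.

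The tip samples were taken by laser capture, in which chosen areas of a frozen section are lifted out under the microscope, from lungs of C57/Bl6 mice on day 6 after birth, and 10000 tips were collected from many mice of several litters. The lung samples were RNA of pooled whole lungs of the same strain and age, so both groups are pools, and neither carried a treatment or a genetic change that the labels name. The experiment was run once and then repeated with other litters, and every RNA was put on 2 Affymetrix arrays. There were thus 4 RNA samples on 8 arrays, and 2 RNA samples in each group. Titles and source names separate the groups, whereas the description of the tip arrays names whole lung. The protocol entries give an amplification for each tip array and, among the lung arrays, only for array 1 of experiment 1. The design text has both tissues amplified side by side.

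Polycomb complexes keep developmental genes silent: PRC2 methylates a lysine in the tail of histone H3, and PRC1 reads that mark, compacts chromatin and attaches ubiquitin to histone H2A. Histone deacetylases strip acetyl groups from histones and other proteins, the SWI/SNF, ISWI and CHD remodellers use ATP to slide or evict nucleosomes, and DNA methyltransferases place methyl groups on cytosine. From mouse knockouts, Ezh2, Hdac1 together with Hdac2, and Hdac3 are known to be needed in the developing lung epithelium.

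The promoters of 4 members are shown because the first 3 belong to Polycomb genes with low tip signal and the last to a deacetylase gene with high tip signal. Each window runs from 250 bases before to 50 bases after the transcription start, 5′ to 3′ on the gene's strand, from RefSeq on GRCm38.p6. Rnf2 is at chr1:151500942-151501241 on the minus strand, Bmi1 at chr2:18676768-18677067 on the plus strand, Eed at chr7:89980927-89981226 on the minus strand and Hdac5 at chr11:102230123-102230422 on the minus strand. Capitals mark the GC box, the CCAAT box and the YY1 motif on either strand.
Rnf2: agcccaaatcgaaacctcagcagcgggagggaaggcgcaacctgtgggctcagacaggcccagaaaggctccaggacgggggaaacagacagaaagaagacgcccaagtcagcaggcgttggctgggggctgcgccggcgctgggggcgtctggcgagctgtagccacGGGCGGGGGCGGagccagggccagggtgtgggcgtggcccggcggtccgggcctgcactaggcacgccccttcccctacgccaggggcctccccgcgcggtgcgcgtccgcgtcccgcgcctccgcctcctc
Bmi1: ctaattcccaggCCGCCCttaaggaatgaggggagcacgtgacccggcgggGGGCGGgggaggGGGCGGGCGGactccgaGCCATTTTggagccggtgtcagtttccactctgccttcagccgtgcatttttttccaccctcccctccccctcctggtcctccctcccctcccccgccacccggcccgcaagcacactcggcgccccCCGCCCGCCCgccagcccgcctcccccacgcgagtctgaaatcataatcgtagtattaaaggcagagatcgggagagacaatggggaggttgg
Eed: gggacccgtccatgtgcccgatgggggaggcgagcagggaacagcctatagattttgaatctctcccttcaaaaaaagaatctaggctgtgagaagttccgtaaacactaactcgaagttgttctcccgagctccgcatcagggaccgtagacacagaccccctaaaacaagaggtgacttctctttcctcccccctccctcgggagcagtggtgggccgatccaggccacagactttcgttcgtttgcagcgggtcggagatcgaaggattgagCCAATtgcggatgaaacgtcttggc
Hdac5: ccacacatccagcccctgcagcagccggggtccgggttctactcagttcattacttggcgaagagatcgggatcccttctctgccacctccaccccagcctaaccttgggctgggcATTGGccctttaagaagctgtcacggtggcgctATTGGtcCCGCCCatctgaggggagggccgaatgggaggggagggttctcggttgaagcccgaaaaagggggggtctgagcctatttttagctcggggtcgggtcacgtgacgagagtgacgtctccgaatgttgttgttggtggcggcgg

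RefSeq windows were matched by symbol for 36 of the 42 genes, and those of Cbx2, Hdac1, Hdac3, Smarce1, Chd1 and Chd7 were not used here. The following motifs were searched on both strands, with overlapping matches counted: the GC box as GGGCGG, the CCAAT box by those letters, the YY1 motif as GCCATNTT with N for any base, the E2F motif as TTTNGCGC and the TATA box as TATAAA. A gene with several starts has several windows, which made 49. The GC box was in 35 of the 49 member windows, or 71.4%, against 35.7% of all 32851 windows. The CCAAT box was in 38.8% of the member windows and 37.4% of all windows, and the TATA box in 2.04% and 13.6%. The YY1 motif was in 10.2% and 6.05%, and the E2F motif in 6.12% and 1.38%. The sequence shown for Bmi1 holds the YY1 motif and 6 GC boxes, that of Rnf2 holds 2 adjoining GC boxes, and that of Eed holds 1 CCAAT box and no GC box. Member windows had a median of 27 CpG dinucleotides, against 7 over all windows. Over the 28 member genes with a single start, the median was 30.5. Among these it was 20 for the 3 called higher in tips and 30 for the 7 called lower. The called genes Hdac1, Hdac3 and Chd1, with no window used, and Phc2, with several starts, are left out of these medians. These are descriptions of letters in a window, not of binding.

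All values below are signals, the authors' intensities on a linear scale, and background is the 95th percentile, on the same array, of control probe sets that match bacterial or yeast transcripts. When 4 signals of a group are given, they stand in the order experiment 1 array 1, experiment 1 array 2, experiment 2 array 1, experiment 2 array 2. A difference is given on the log2 scale as tips minus lung, with its standard error over n = 2 RNA samples in each group, from a limma fit to the 7453 probe sets bright enough to be tested. A probe set was called when its adjusted p over that whole table lay under 0.05. Background was higher on tip arrays, at 487 to 1244, than on lung arrays, at 314 to 568. The median signal was 786 to 923 on tip arrays and 501 to 572 on lung arrays, and the median difference of all tested probe sets was 0.35. For bright probe sets the order was the other way: the 95th percentile of signals was 6126 to 6804 on tip arrays and 8870 to 9156 on lung arrays. Of 6 markers of myofibroblasts and smooth muscle, cells of the septal tip, all were above background on every tip array. Tagln, Actg2 and Myh11 were called higher in tips. Acta2, at 0.09 with opposite signs in the experiments, Eln, at 0.72, and Pdgfra, at -0.83, were not called. For Pdgfra every tip array lay below every lung array. In pooled tissue, fewer cells of a type and less RNA per cell cannot be told apart.

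Of the 59 member probe sets, 41 were tested, of 34 genes. Of these, 6 genes were called higher in tips (Phc2, Hdac1, Hdac3, Hdac5, Hdac6 and Chd8) and 8 lower (Rnf2, Bmi1, Eed, Suz12, Rbbp7, Hdac2, Smarca2 and Chd1), and 27 probe sets were not called. Over all tested probe sets, 14.5% were called higher and 13.7% lower. With 1 probe set per gene, its brightest, the shares over 5642 genes were 14.6% and 15.1%. The set was put together with this contrast known, and nothing is read from its counts. The median difference was 0.07 over the tested member probe sets and -0.17 over the brightest one of each gene. The 4 tip arrays lay wholly above the 4 lung arrays for 12 tested member probe sets and wholly below for 9, against 24.1% and 18.0% of all tested probe sets. The mean log2 signal over all arrays ran from 9.62 to 11.29 for the members called higher and from 10.06 to 14.51 for those called lower.

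**Figure D1:**
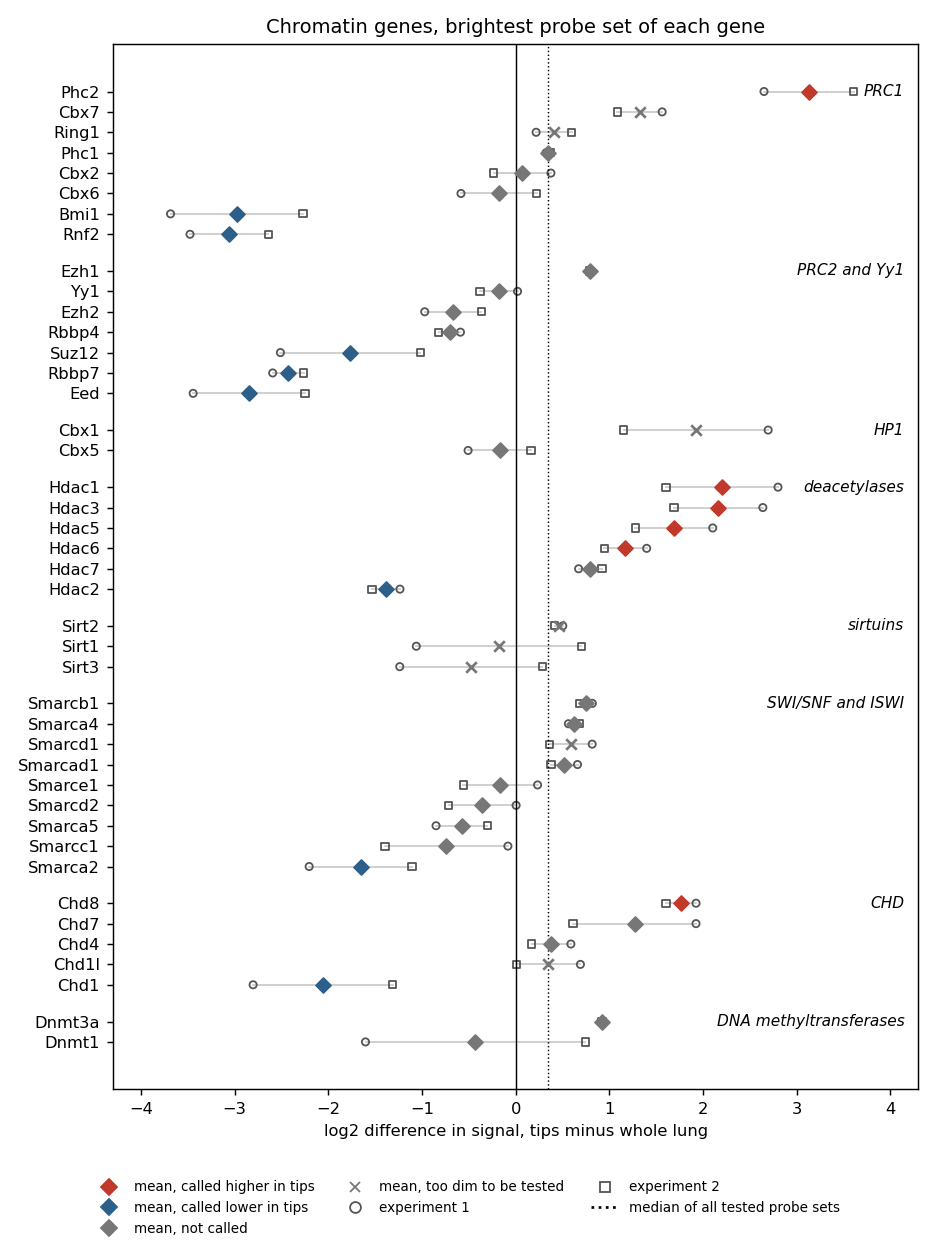
Log2 difference in signal, tips minus whole lung, for the brightest probe set of each of the 42 genes, grouped by class: diamonds are means over both experiments (red called higher, blue called lower, grey not called), crosses are means of genes too dim to be tested, open circles and squares are experiments 1 and 2, and the dotted line is the median of all tested probe sets. The Polycomb classes run from -3.06 for Rnf2 to 3.13 for Phc2. Rnf2, Hdac3, Chd7, Cbx1 and Ring1 were under background on every array of a group, and Cbx7, Sirt2, Smarcd1 and Chd1l on all 8 arrays. For these genes the plotted value comes from the measured signals and is not to be read as a fold. For Rnf2 and Hdac3 the text gives a lower limit.

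PRC1 members stood at both ends of the range. Bmi1 encodes the RING finger partner that stimulates the ubiquitin ligase of PRC1. Its signals were 2122, 559.5, 2014 and 2467 in tips, against 16736, 15607, 12301 and 10440.3 in lung. Every tip array lay below every lung array, and 1 tip array, array 2 of experiment 1, was under its own background. The difference was -2.98 ± 0.37, with -3.68 in experiment 1 and -2.27 in experiment 2. Rnf2 encodes RING1B, the catalytic ubiquitin ligase of PRC1. Its brightest probe set gave 244, 248, 137 and 267 in tips, against 4987, 3623, 2616 and 1530.2 in lung. All 4 tip arrays were under background, so only a limit can be given: lung was at least 3.73-fold brighter, taking the background of each tip array as the tip level.

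Phc2, a polyhomeotic protein that links PRC1 complexes to each other, went the other way. It gave 3563, 2987, 2196 and 3324.5 in tips, against 647, 220.4, 105 and 64.2 in lung. The groups were far apart, and only 1 of the 4 lung arrays, array 1 of experiment 1, was above background. The difference was 3.13 ± 0.48, the largest positive one among the members on these signals. With all signals under 1244, the highest background of any array, set to that value it was 1.16, below Hdac5 at 1.61 and Chd8 at 1.55. Its relative Phc1 gave 0.35 ± 0.45 and was not called. Among the Cbx proteins of PRC1, which read methylated histone H3, the probe sets of Cbx2 gave 0.07 ± 0.41 and 0.41 ± 0.67, and those of Cbx6 gave -0.18 ± 0.37 and 0.84 ± 0.41. None of these 4 was called. Cbx7 was too dim to be tested and under background on all 8 arrays, with signals of 268.5 to 644 in tips and 38.2 to 108 in lung. Ring1, the other ubiquitin ligase of PRC1, was also too dim, at 301 to 395 in tips and 158 to 426.5 in lung.

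All 3 called genes of PRC2 were lower in tips, of 7 genes tested together with Yy1. Eed is the subunit that binds methylated histone H3 and stimulates the enzyme. It gave 222, 143, 639 and 908 in tips, against 3635, 3256, 4574 and 3835 in lung, a difference of -2.84 ± 0.49. The tip arrays of experiment 1 were under background and those of experiment 2 above it, while no lung array was near it. Suz12 holds the complex together. Its brightest probe set gave 179, 847, 1443 and 1083.5 in tips, against 3534, 2744, 2958 and 2446 in lung, a difference of -1.76 ± 0.45. The groups did not overlap, and both tip arrays of experiment 1 were under background. Rbbp7, a histone-binding WD repeat protein that PRC2 shares with deacetylase complexes, was among the brightest members. It gave 10072, 7763, 12414 and 9984 in tips, against 55218, 53052.5, 55894 and 52279.8 in lung, a difference of -2.43 ± 0.32. No array was near background, and the lung arrays spread less than the tip arrays. The size of the Rbbp7 difference changed with the scaling. It was -1.78 with quantile normalization, -1.57 with cyclic loess and -2.97 with median centring.

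The catalytic subunits of PRC2 were not called in the main comparison. Ezh2, the methyltransferase known to be high in dividing cells, averaged 2841 ± 1017 in tips and 4473 ± 215 in lung (SD, n = 2), a difference of -0.67 ± 0.33. Ezh1, its relative in resting cells, averaged 2758 ± 1018 in tips and 1517 ± 535 in lung, a difference of 0.80 ± 0.39. For both genes 1 or more tip arrays lay within the range of the lung arrays. Rbbp4, the close relative of Rbbp7, gave 4915, 4931.5, 4614 and 4049.6 in tips, against 7701, 7268, 6751 and 8917 in lung. Its arrays did not overlap, yet the difference of -0.71 ± 0.28 was not called. With median centring both Ezh2, at -1.21, and Rbbp4, at -1.25, were called lower. Without the tip RNA of experiment 2, the difference was -1.02 for Ezh2 and 1.14 for Ezh1. Yy1, a zinc finger protein whose fly homologue recruits Polycomb complexes, was bright in both tissues, at 12693 to 17227 in tips and 13619.9 to 19194 in lung, a difference of -0.18 ± 0.31.

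Markers of dividing cells, in which Ezh2 and Dnmt1 are known to be high, had a lower summed signal in tips. Of 12 proliferation genes on the array 11 were tested: Pcna, Bub1, Top2a, Aurkb and Plk1 were called lower and Mcm2 and Mcm7 higher. The sum was 19936 to 27338 on tip arrays and 42904 to 66663 on lung arrays, and none of the 12 was under background on all 8 arrays. Leukocyte markers summed to 37648.5 to 48187 on tip arrays and 80994 to 104644 on lung arrays, but without the bright Ctss and Laptm5 to 21312 to 28846 on tip arrays and 13702 to 19323 on lung arrays. Of the 7 tested, Ctss, Ptprc and Laptm5 were called lower and Cd52 higher, 4 had a positive difference, the median was 0.44, and none was under background everywhere. The part of these cells in the differences was not tested.

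**Figure D2:**
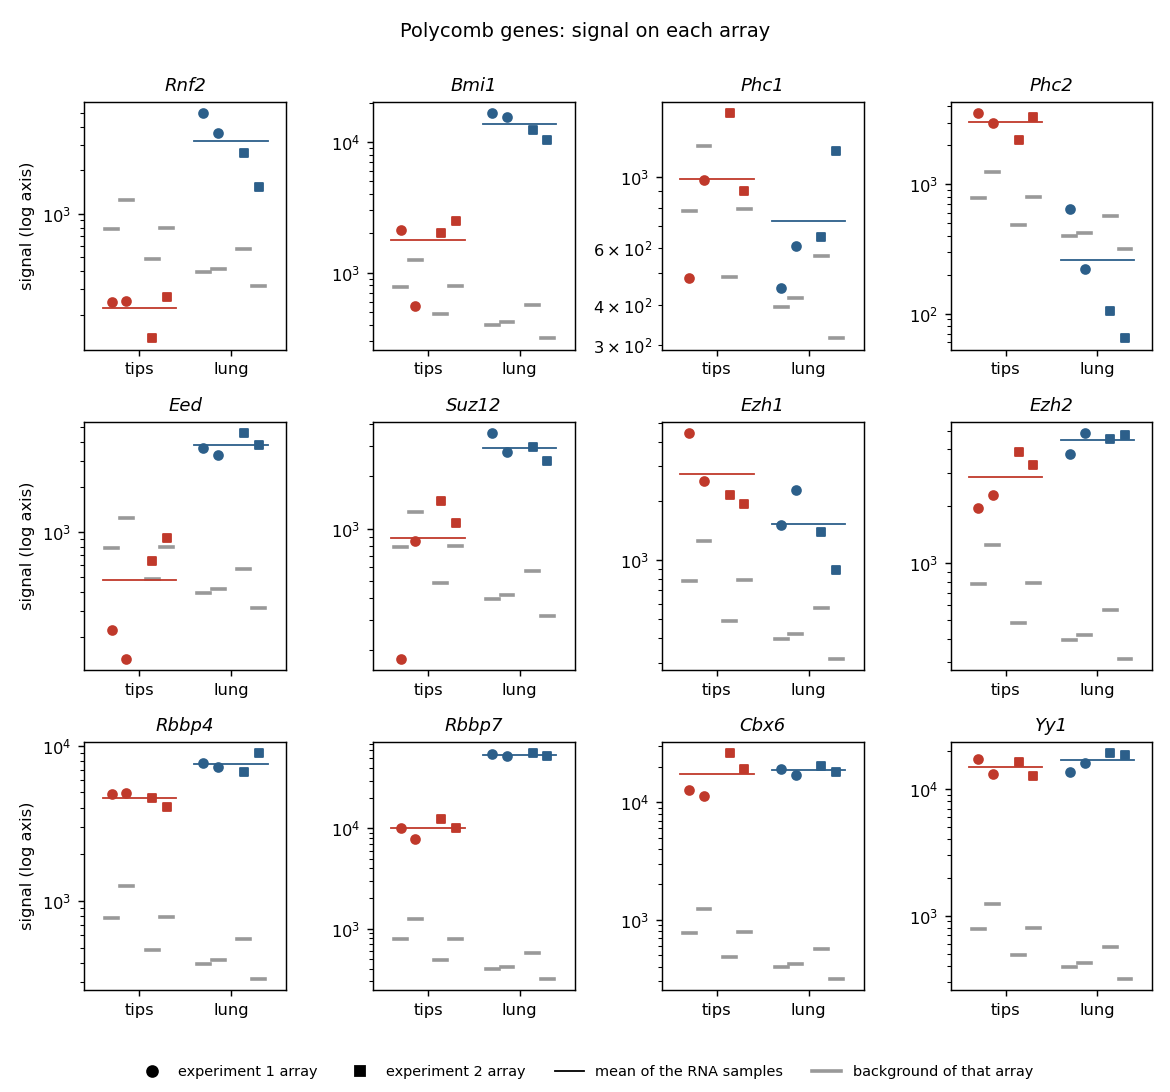
Signal on each array, on log axes, of 12 Polycomb genes, tips in red and whole lung in blue, with circles for experiment 1, squares for experiment 2, coloured lines for the mean of the RNA samples and grey bars for the background of that array; the brightest probe set is drawn. Rnf2 sits under the grey bars on all 4 tip arrays, Phc2 sits under them on 3 of 4 lung arrays, and Yy1 and Cbx6 overlap between groups far above background.

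The heterochromatin proteins of the HP1 family, which bind methylated histone H3 in silent chromatin, were not called. Cbx5 averaged 2104 ± 19.7 in tips and 2429 ± 761 in lung, a difference of -0.17 ± 0.34, and a dim second probe set was not tested. Cbx1 was not tested either, at a mean log2 signal of 9.08 just under the limit of 9.20. Its brighter probe set gave 1383, 1469, 598 and 515 in tips, against 69.6, 119, 76.5 and 294 in lung. All lung arrays were under background and 3 of 4 tip arrays above it. The tip signals as measured averaged 2.15-fold the background of the lung arrays. As not every tip array was above its own background, this is no lower limit, and there was no test.

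The 6 members among the histone deacetylases of classes I and II, with 1 probe set each, were all bright enough to be tested. Of these, 4 were called higher and 1 lower in tips. Hdac1 and Hdac2, closely related enzymes at the core of the Sin3, NuRD and CoREST complexes, differed in opposite directions. Hdac1 gave 5213, 2387, 2154 and 629 in tips, against 163, 747, 249 and 336 in lung, a difference of 2.20 ± 0.52. The groups overlapped, because array 2 of tip experiment 2, under its background, was lower than array 2 of lung experiment 1. With array 1 of each RNA alone the difference was 3.32, and with array 2 alone it was 1.09 and not called. Hdac2 gave 2015, 1031, 1388 and 1048 in tips, against 3926, 3325, 4429 and 3218 in lung, a difference of -1.38 ± 0.31. Its groups did not overlap, and 1 tip array was under background. Whether these probe sets tell the 2 transcripts apart was not tested.

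Hdac3, the catalytic subunit of the NCoR and SMRT corepressor complexes, gave 1557, 2151, 1328 and 1186 in tips, against 140.1, 199, 545 and 122.5 in lung. It was above background on all tip arrays and on no lung array. Taking the background of each lung array as the lung level, the tip signal was at least 3.66-fold higher. Background was higher on tip arrays, and with all signals under 1244 set to that value the Hdac3 difference was 0.27 and not called. Hdac5, a class II enzyme that shuttles between nucleus and cytoplasm and binds MEF2 factors, gave 5876, 6221, 3902 and 2392 in tips, against 1433, 1163, 1022 and 1347 in lung. The lowest tip array was well above the highest lung array, and the difference was 1.69 ± 0.38. Hdac6, a cytoplasmic enzyme that deacetylates tubulin, gave 2392, 2472, 1903 and 2184.5 in tips, against 780.5, 880.5, 920.1 and 1059 in lung. It had the smallest difference of the called members, 1.17 ± 0.34, with all arrays above background and no overlap. Hdac7, a class II enzyme known from endothelial cells, also had all tip arrays above all lung arrays but was not called, at 3929.6 ± 1453 in tips and 2202 ± 474 in lung, a difference of 0.80 ± 0.36.

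Relative to the median of all tested probe sets, Hdac1 differed by 1.85, Hdac5 by 1.34, Hdac6 by 0.82 and Hdac2 by -1.73. Other scalings moved that median to 0.03 (quantile normalization), -0.19 (median centring) and 0.06 (cyclic loess). Hdac6 was not called under these 3 scalings and Hdac5 was not called under median centring, while the other 12 called members kept their calls under all 3. The endothelial markers Pecam1 and Tie1 were called higher in tips and Tek lower, of 5 tested, with a summed signal of 38150.3 to 62266.5 on tip arrays and 27194 to 32197 on lung arrays. Epithelial markers summed to 129305 to 190996 on tip arrays and 46370.1 to 53467 on lung arrays: of 5 tested, Sftpc, at 1.95, and Scgb1a1, at 1.49, were called higher, and none was under background everywhere. The part of these cells in the deacetylase values was not tested.

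**Figure D3:**
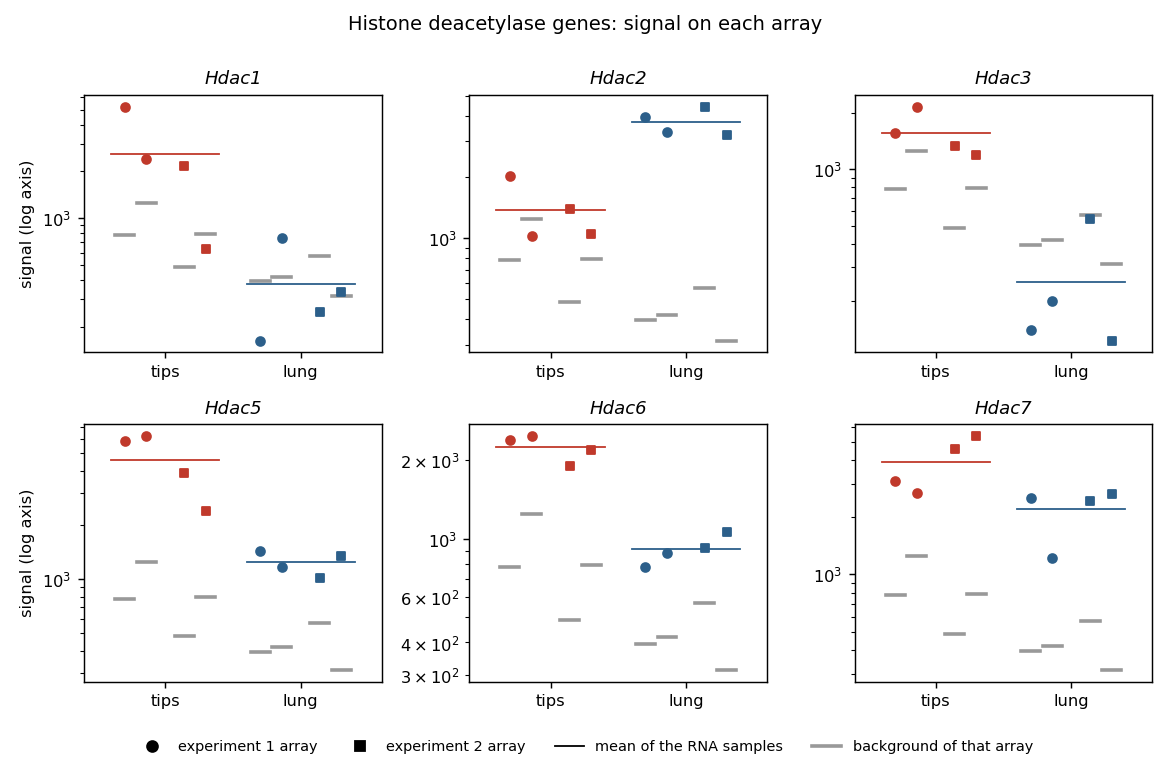
Signal on each array, on log axes, of the 6 histone deacetylase genes, tips in red and whole lung in blue, with circles for experiment 1, squares for experiment 2, coloured lines for the mean of the RNA samples and grey bars for the background of that array. Hdac3, Hdac5, Hdac6 and Hdac7 have all tip arrays above all lung arrays, Hdac2 has them all below, and Hdac1 overlaps.

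The 3 members among the sirtuins, deacetylases that depend on NAD, were all too dim to be tested. Sirt2, mainly a cytoplasmic enzyme, was under background on all 8 arrays, at 169.7 to 316 in tips and 82 to 192 in lung. Sirt1, the nuclear enzyme, gave 122, 100.5, 645 and 169.9 in tips, against 539, 279.9, 46.9 and 338 in lung, with 1 tip array and 2 lung arrays above background. Sirt3, the mitochondrial enzyme, was above background on 1 tip array and 3 lung arrays. For both, the difference pointed to lung in experiment 1 and to tips in experiment 2.

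Of the SWI/SNF and ISWI genes, 8 were tested and 1 was called. Smarca2, which encodes BRM, an ATPase motor of SWI/SNF, gave 2558, 1315, 5267 and 3116 in tips, against 10864, 7494, 11835 and 6682 in lung. The groups did not overlap and all arrays were above background, with a difference of -1.65 ± 0.38. The alternative motor, BRG1, is encoded by Smarca4, whose brighter probe set averaged 2059 ± 443 in tips and 1144 ± 157 in lung, a difference of 0.62 ± 0.34 that was not called. The core subunit Smarcb1 gave 4950.4, 5114, 6672 and 6088 in tips, against 2673.5, 2907.5, 3679 and 4176 in lung. Its tip arrays were all above its lung arrays, but the difference of 0.75 ± 0.32 was not called. With cyclic loess it was 0.99 and called.

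Smarcc1, the scaffold BAF155, differed between the lung RNAs more than between tissues. It gave 19475, 21620.1, 25753 and 22282 in tips, against 19847, 23809, 62485 and 63962 in lung. Both lung arrays of experiment 2 stood apart from the 6 other arrays, and experiment 1 gave a difference of -0.08 and experiment 2 one of -1.39. Smarca5, the ISWI motor, gave -0.57 ± 0.38, Smarce1 gave -0.16 ± 0.42 and Smarcad1, a remodeller of replicated chromatin, gave 0.52 ± 0.33. The brightest probe set of Smarcd2, one whose name marks probes that other transcripts can share, gave -0.35 ± 0.45 at signals of 80893 to 101105 in tips and 87667 to 148718 in lung. Smarcd1 was under background on all 8 arrays and not tested.

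The CHD remodellers held 1 call in each direction. Chd1, a remodeller of transcribed genes, gave 842, 632, 2519 and 1822 in tips, against 6635, 5410.3, 5733 and 5358 in lung, a difference of -2.06 ± 0.44. The groups did not overlap, and the tip arrays of experiment 1, 1 of them under background, were lower than those of experiment 2. Chd8, which binds beta-catenin and represses its targets, gave 3807, 4422, 4551 and 5139.6 in tips, against 624, 1469, 1425 and 1559 in lung, a difference of 1.77 ± 0.33. The tip arrays were close together, and array 1 of lung experiment 1 was lower than the other lung arrays. Chd7, mutated in the human CHARGE syndrome, was above background on 2 tip arrays and no lung array, and was not called. Its tip signals as measured averaged 2.22-fold the background of the lung arrays. Some of them lay under their own background, so this is no lower limit. With all signals under 1244 set to that value, the Chd7 difference was 0.062. Chd4, the motor of NuRD, was measured by a probe set of shared probes with signals of 127973 to 216377 in tips and 80828 to 195990.1 in lung, a difference of 0.38 ± 0.56. With cyclic loess the difference was 1.63 and called, and with median centring it was -0.16. Chd1l was under background on all arrays and not tested.

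DNA methyltransferases were not called. Dnmt1, which copies methylation after replication, gave 321, 361, 2292.5 and 2037 in tips, against 1449, 1239, 1146.5 and 1319 in lung. The tip RNAs disagreed: experiment 1 was under background on both arrays and experiment 2 above all lung arrays, so that the difference came to -1.60 in experiment 1 and to 0.74 in experiment 2. The de novo enzyme Dnmt3a gave 1106, 688, 663 and 568 in tips, against 297, 514, 215 and 296 in lung. The groups did not overlap, but signals were near background and the difference of 0.92 ± 0.47 was not called.

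**Figure D4:**
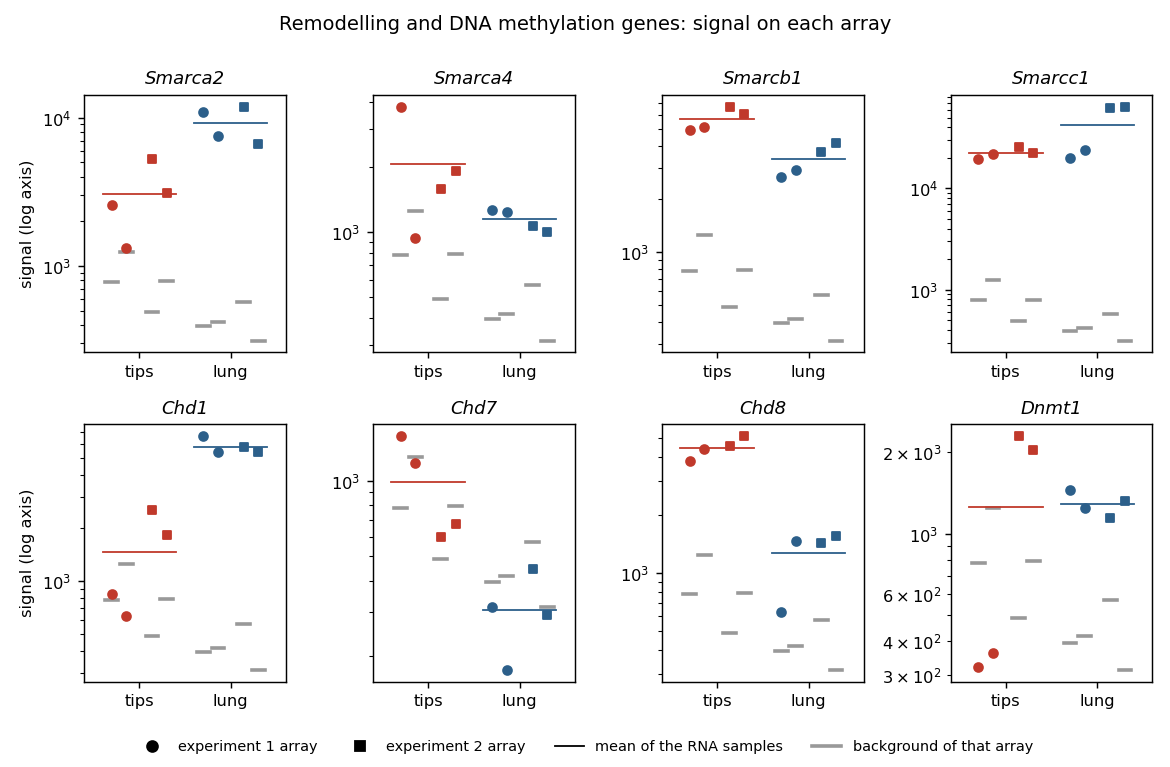
Signal on each array, on log axes, of 7 remodeller genes and Dnmt1, tips in red and whole lung in blue, with circles for experiment 1, squares for experiment 2, coloured lines for the mean of the RNA samples and grey bars for the background of that array; the brightest probe set is drawn. Smarca2 and Chd1 have all tip arrays below all lung arrays and Chd8 has them all above, while in Smarcc1 the lung RNAs, and in Dnmt1 the tip RNAs, differ between experiments.

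Of the 42 genes, 13 had more than 1 probe set. Of the 6 with at least 2 tested ones, 5 had probe sets whose differences were of opposite sign. The count was 2 with quantile normalization, 2 with median centring and 1 with cyclic loess, and no difference between probe sets of a gene was tested. Suz12, called lower on its brightest probe set, gave 0.39 ± 0.52 on another tested one, with signals of 163 to 2111 in tips and 446 to 794 in lung. A further Suz12 probe set and both other Rnf2 probe sets were too dim to be tested and under background on every array but 1 lung array of Rnf2, so they give no comparison. Smarca5 gave 0.06 ± 0.59 on its second probe set and Smarcad1 gave -0.51 ± 0.40. Smarcd2 gave 0.57 ± 0.33 and 1.21 ± 0.48 on its other tested probe sets, and the name of the first marks shared probes too. The untested second probe sets of Yy1 and Smarca4 were above background on 1 and 2 tip arrays and on no lung array. No tip array was above background for those of Cbx1, Cbx5, Dnmt1 and Dnmt3a, and the dimmest of Smarcd2 was above it on 1 tip array and no lung array. The tested member nearest to the brightness limit was the brighter Dnmt3a probe set, at a mean log2 signal of 9.33. Of the 14 called genes, 12 had a single probe set, so that only Rnf2 and Suz12 could be compared in this way.

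**Figure D5:**
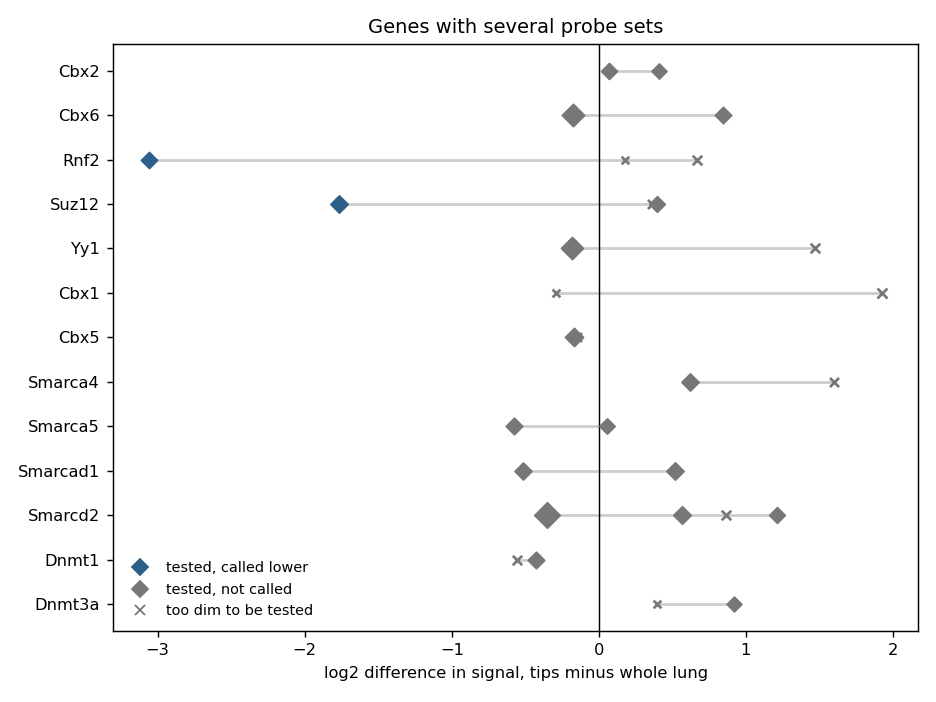
Log2 difference in signal, tips minus whole lung, for each probe set of the 13 genes with several: blue diamonds were called lower, grey diamonds were not called, crosses were too dim to be tested, and larger marks are brighter probe sets. The called probe sets of Rnf2 and Suz12 lie at -3.06 and -1.76, the first against tip arrays all under background. The crosses of both genes come from probe sets at or under background on nearly all arrays, and their positions give no comparison.

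Other genes of the same complexes were described from a list of 85 partner genes grouped by role, of which 49 were on the array and 38 were tested. Of the 38, 4 were called higher and 7 lower, and the median difference was 0.30. Over the brightest probe sets of all 5642 genes, 14.6% were called higher and 15.1% lower. Nothing is read from the counts of partners, in total or by role. With the experiment as a block there were 6 higher and 8 lower, with Jarid2, Mbd3 and Crebbp added. The 3 largest positive differences were those of Pcgf2, Ruvbl2 and Kat7. Pcgf2, a RING finger relative of Bmi1 that can replace it in PRC1, was at 2.07 ± 0.50. Ruvbl2, an ATPase of the INO80 and TIP60 complexes, was at 1.58 ± 0.39. The acetyltransferase gene Kat7 was at 1.44 ± 0.35, on a probe set whose name marks probes that other transcripts can share. Pcgf2 gave 2318.5, 2330, 7001 and 8346 in tips, against 770, 1107, 844 and 894 in lung, the opposite order from Bmi1. Its tip RNAs differed widely between the experiments. No partner was called higher with median centring or with all signals under 1244 set to that value. The 3 largest negative differences were those of Kat2b, the acetyltransferase PCAF, at -3.33 ± 0.36, of Mtf2, a PRC2 subunit that brings the complex to CpG islands, at -2.41 ± 0.39, and of Ss18, a SWI/SNF subunit, at -2.04 ± 0.49. Of the 6 Polycomb partners tested, 1 was called higher (Pcgf2) and 3 lower (Mtf2, Aebp2 and Asxl1). Of the 9 partners in deacetylase complexes, Rcor1 was called lower and the other 8, with Sin3a and Mta2 among them, were not called, apart from Mbd3 with the block.

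The choice of members did not use the difference between experiments, which was tested with tissue as a term in the fit. No member probe set was called by limma in experiment 2 against experiment 1, nor was any under the other settings tried for this contrast, and of all tested probe sets 3 were called (0.0403%), those of Myh6, Hba-a1 and Xist. At an unadjusted p under 0.05 there were 3 member probe sets: Dnmt1 at 1.06 ± 0.51, Smarcc1 at 0.88 ± 0.39 and the dimmer probe set of Cbx2 at -1.21 ± 0.56, each with a limma adjusted p of 0.863. Cbx2 and Dnmt1 were the lowest and the highest of the members, whose median was 0.14. The tip-to-lung difference had the same sign in both experiments for 30 of 41 tested member probe sets, or 73.2%, against 78.8% of all tested probe sets. For 12 of the 14 called members it was larger in experiment 1, the exceptions being Phc2 and Hdac2.

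Arrays of the same RNA limited the precision of single members. The median gap between arrays of an RNA over the tested members, on the log2 scale, was 0.37 in experiment 1 and 0.26 in experiment 2 for tip RNAs, and 0.29 and 0.25 for lung RNAs. With array 1 of each RNA alone, Hdac3, Hdac6 and Suz12 were not called, and with array 2 alone Hdac1, Hdac5, Hdac6 and Suz12 were not. Of the 14 called probe sets, 5 were above background on all 8 arrays: Hdac5, Hdac6, Chd8, Rbbp7 and Smarca2. Without the lung RNA of experiment 1, 3 member calls were left (Phc2, Bmi1 and Rbbp7), and without that of experiment 2 there were 5, with Chd8 and Rnf2 added. Setting all signals under 1244, the highest background of any array, to that value left 8 member calls, without Rnf2, Smarca2, Hdac1, Hdac3, Hdac5 and Hdac6. The differences then came to -1.65 for Smarca2 and 1.61 for Hdac5, close to those without this floor, and to -1.14 for Rnf2, 0.88 for Hdac1, 0.27 for Hdac3 and 0.77 for Hdac6. That level comes from array 2 of tip experiment 1, and with the next highest, 792, there were 12 calls, without Hdac1 and Hdac3. Leaving that array out gave 12 calls, without Hdac2 and Hdac6.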

How the data were processed

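The authors deposited linear intensities, a signal for each probe set. MAS5, with no version stated, made them per the submitters' processing notes, and all arrays share a trimmed mean near 1501. RNA was extracted and labelled with biotin per the labels' protocols, whose entries for amplification differ between arrays as given above. Of 12488 probe sets, 66 were controls. In the platform annotation 10855 carried 1 symbol, 396 several and 1237 none. For 10839 probe sets the current symbol was looked up by gene ID, and how many symbols changed was not counted.

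Here each array was scaled to a trimmed mean of 1500.88 (2% left out at each end), an offset of 150.088 was added and log2 was taken, which understates differences of dim probe sets. Probe sets with a mean under the 40th percentile (9.20) were left out. Arrays of an RNA were averaged, and the 2 RNA samples per group entered limma 3.58.1 (lmFit and eBayes with trend, R 4.3.3), at a Benjamini-Hochberg adjusted p under 0.05 over 7453 probe sets. The fit had 2 residual and 7.05 prior degrees of freedom and a median standard error of 0.40. The small number of arrays limits the precision. Background rests on 19 control probe sets per array. Where all arrays of a group lay under background, the bright group's mean was set against the higher of background and signal. The bright group's own signals entered as measured, also where they lay under background. The experiment number marks tips and lung processed together in the design text and pairs the samples. The deviations of tips and lung correlated at 0.0452, and blocking on the experiment gave 2452 calls in place of 2106 (2098 in both), with the same 14 members. The procedure was tested on simulated data with independent noise and large planted differences, which gives no error rate for the present arrays.

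The members and all gene lists were chosen with earlier results of these data known. Per-array signals are given for all called members, and the brightest probe set of a gene is described first. Those with several symbols stayed in the fit but are no members. Promoter windows are from RefSeq. Alternatives covered scaling, offset, filter, a common floor, single arrays, the block, the trend and each RNA left out.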

Additional observations from a re-analysis of the deposited data

Results flagged for a closer look

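In 118 groups of 4 arrays of a member probe set, 6 had an array far from the other 3 of its group. For 4 independent values the rule flags about 1 group in 20 by chance. These groups hold 2 arrays of each of 2 RNAs, so that rate need not hold here. In tips, Bmi1 stood at 559.5 on array 2 of experiment 1, below the other tip arrays. The bright Rnf2 probe set stood at 137.4 on array 1 of tip experiment 2, below the other tip arrays, all of them under background. Sirt3 stood at 914.5 on the same array, above the other tip arrays. In lung, array 1 of experiment 1 was high for Ring1, at 426.5, and low for Chd8, at 624.4. Array 2 of lung experiment 1 was low for Hdac7, at 1220.5.

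The tip-to-lung difference pointed in opposite directions in the experiments, with the tip arrays of each experiment wholly on one side of its lung arrays, for Dnmt1, at -1.602 in experiment 1 and 0.7443 in experiment 2, and for the dimmer Cbx2 probe set, at 1.371 in experiment 1 and -0.5544 in experiment 2. The difference between experiments in this effect was not tested.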

How the results depend on the processing

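No called member changed sign under any alternative in which it was tested (18 for Hdac1 and Hdac3, which a stricter filter leaves out, and 19 for the others). Of the 19, 17 were planned and 2 (leaving out array 2 of tip experiment 1, and the lower floor) were chosen after seeing the data. Bmi1, Phc2 and Rbbp7 were called under all 19, Hdac6 under 9. With the common floor, 2 members were called higher. With the experiment as a replicate block, the pairing gave 2452 calls in place of 2106 and changed no member call. With 1 RNA left out, the spread is taken from the other group: members called higher ran from 1 to 10 and lower from 2 to 10, all probe sets called higher from 72 to 1866 and lower from 277 to 1458, and partner genes called higher from 1 to 7 and lower from 2 to 8. All probe sets called higher numbered 618 with quantile normalization, 271 with median centring, 255 with the common floor, 511 with array 1 alone and 654 with array 2 alone, and those called lower 571 with the floor. Partner genes called higher numbered 1 with quantile normalization, 0 with median centring, 0 with the floor, 2 with array 1 alone and 2 without array 2 of tip experiment 1, and those called lower 4 with the floor.

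Several uncalled differences, all of tips minus lung on the log2 scale, turned sign, and the cause was not tested. With quantile normalization these were Phc1 (-0.15), Suz12 (-0.086), Cbx2 (-0.42 and -0.079), Cbx6 (0.61), Smarca5 (-0.42) and Yy1 (0.54). With median centring they were Phc1 (-0.19), Suz12 (-0.15), Cbx2 (-0.47 and -0.13), Smarcad1 (-0.022), Smarca5 (-0.48) and Chd4 (-0.16). With cyclic loess they were Phc1 (-0.13), Suz12 (-0.11), Cbx2 (-0.40 and -0.12), Cbx6 (0.61), Smarca5 (-0.46), Yy1 (0.58), Smarcc1 (0.17) and Smarcd2 (0.83). Dnmt1 gave 0.30 under the common floor, or 0.041 under the lower one, and Smarca5 -0.11 with an offset of 1%. With array 1 alone, Cbx2 gave -0.35, Smarca5 -0.57, Smarce1 0.17, Yy1 0.062 and Smarcad1 0.013, and with array 2 alone Cbx5 gave 0.16. Without array 2 of tip experiment 1, Cbx2 gave -0.20, Smarca5 -0.39 and Smarce1 0.12. With 1 RNA left out, the values ran from -0.21 to 0.35 and from -0.68 to 1.49 for Cbx2, from -0.48 to 0.14 for Cbx5, from -0.62 to 0.27 for Cbx6, from -0.14 to 0.90 for Chd4, from -1.55 to 0.69 for Dnmt1, from -0.82 to 0.94 for Smarca5, from -1.50 to 0.029 for Smarcc1, from -0.60 to 0.27 for Smarce1 and from -0.29 to 1.07 for Suz12.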

Other observations

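Probe sets annotated to both Cbx3, the remaining HP1 gene, and its pseudogene Cbx3-ps5 were not counted as members. The brighter one gave 2960, 1544.5, 4068 and 3046 in tips, against 5538, 5209, 5894 and 5043 in lung, so that its groups did not overlap. Its log2 difference of -0.94 ± 0.33 was not called. The other was too dim to be tested, with a mean signal of 436 in tips and 546 in lung.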
